A study of Mus musculus with 6 samples.

Results

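Cholesterol synthesis, its control, sterol transport and the neighbouring fatty acid steps were compared between cells labelled female germline stem cells, here FGSC, and cells labelled spermatogonial stem cells, here SSC. FGSC were taken from the ovaries of CD1 mice 3 days old, and SSC from the testes of CD1 mice 6 days old. The set was a list of 32 genes with 17 sterol synthesis genes, 5 regulators, 7 transport and storage genes and 3 fatty acid genes, and members were found as all probes whose annotated gene symbol is on the list. Probes were present for 28 of the 32 genes, 52 probes in all of 34885 with a single gene symbol. Of these genes 23 had at least 1 probe that was kept after the detection filter, out of 10628 genes tested. Acat2, Hmgcs1, Fdft1 and Soat1 were not analysed here. Total RNA of each group was read on 3 arrays of the type Illumina Mouse WG-6 v2.0. No genetic modification or treatment is named for either group, and the labels do not say whether replicates came from separate animals or cultures, so each p-value reflects only how far these samples scatter, and that scatter may be technical. Organ, sex and age differ together and cannot be told apart.

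Cholesterol is built from acetyl-CoA through mevalonate to squalene, which is then closed to lanosterol and trimmed to cholesterol by a chain of membrane enzymes. The transcription factor SREBP2, encoded by Srebf2, drives the genes of this chain. It is held in the endoplasmic reticulum by the escort protein SCAP and the retention proteins INSIG1 and INSIG2 when sterols are plentiful, and is carried to the Golgi and released by proteolysis when they are scarce. In the mouse ovary the oocyte is known to rely on cholesterol made by its surrounding granulosa cells, and in the testis Leydig cells use cholesterol as the raw material of steroids.

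The arrays detected 16198 to 17231 of 45281 probes in FGSC and 18574 to 18823 in SSC, at a detection p-value under 0.05. FGSC replicate 3 stood apart, with Pearson correlations across genes as low as 0.956 with its own group, against 0.986 to 0.994 among the SSC arrays. Of the oocyte marker list 11 of 11 tested genes were higher in FGSC, and of the spermatogonial list 7 of 9 were lower and 1, Pou3f1, was higher. Gfra1, also on the spermatogonial list, was undetected on every array of both groups and was not tested. The summed normalized signal over the oocyte genes was 42537 to 44871 in FGSC and 2506 to 2876 in SSC. Most of the SSC sum came from Sohlh1, the brightest of them. Without Sohlh1 the sums were 32916 to 34029 in FGSC and 324 to 337 in SSC. Over the spermatogonial genes they were 1321 to 1427 in FGSC and 3022 to 3150 in SSC. Without Ret, the brightest spermatogonial gene, they were 1290 to 1398 and 2125 to 2210. Somatic markers differed as well. All 6 Leydig and theca genes with a probe were undetected on every FGSC array, and their summed signal was 158 to 161 in FGSC against 355 to 406 in SSC, where 4 of the 6, among them Cyp17a1 and Insl3, were detected and Fdx1 and Hsd3b1 were not. The sums were 234 to 256 in FGSC and 652 to 727 in SSC for Sertoli genes, with 2 of 7 called higher and 4 lower (0 and 5 with median scaling), and 5 of the 7 undetected in FGSC. They were 319 to 343 and 2677 to 2884 for peritubular muscle genes in FGSC and SSC, with 4 of 5 lower (245 to 265 and 320 to 432 without Mylk, the brightest of them), 180 to 186 and 332 to 351 for endothelial genes, with 3 of 6 lower, and 316 to 393 and 499 to 571 for granulosa genes, with 1 of 6 higher and 4 lower. Macrophage genes summed to 202 to 212 in FGSC and 216 to 220 in SSC, with 1 of 3 lower. The part of other cell types in the results below was not tested, and fewer cells of a type and less RNA per cell cannot be told apart.

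Below, levels are normalized log2 signals, and a difference is FGSC minus SSC in log2 units with the standard error (SE) of the limma fit. Genes with a Benjamini-Hochberg adjusted p under 0.05 over all 10628 genes were called higher or lower in FGSC. The lowest signal of a detected probe lay between 4.82 and 4.89 on this scale. Of the 23 tested members 14 were called, 60.9%, against 62.4% of all genes tested. Of the members 4 were higher, 17.4% against 30.9% of all genes, and 10 were lower, 43.5% against 31.5%. Thus the share of called members was near that of all genes. The median difference was -0.29 for the members and -0.003 over all genes, and the median size of the difference was 0.51 for the members and 0.52 over all genes. The values of FGSC and SSC did not overlap in 19 members, 82.6%, against 70.9% of all genes. Mvk, Abcg1 and Scd2 were undetected on every FGSC array, and thus passed the filter through the SSC arrays alone, which fixed their direction. Among the 20 members detected in both groups, that is on at least 1 array of each, 4 were higher and 9 lower. Of the lower ones, Ebp and Scarb1 were detected on 1 FGSC array and 3 SSC arrays, and so the SSC arrays sufficed for the filter. Without background correction the differences of dim probes were smaller, at -1.08 for Srebf2, -0.91 for Hsd17b7 and -0.62 for Ebp, which kept their calls. There 3 members were higher in place of 4, Npc1 losing the call (0.17, adjusted p = 0.0579). By role, 2 of 12 sterol synthesis genes were higher and 6 lower, with a median of -0.36. Of 5 regulators 1 was higher and 2 were lower, with a median of -0.47. Of 5 transport and storage genes 1 was higher and 1 lower, with a median of -0.16, or -0.008 with the undetected gene at its bound.

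**Figure D1:**
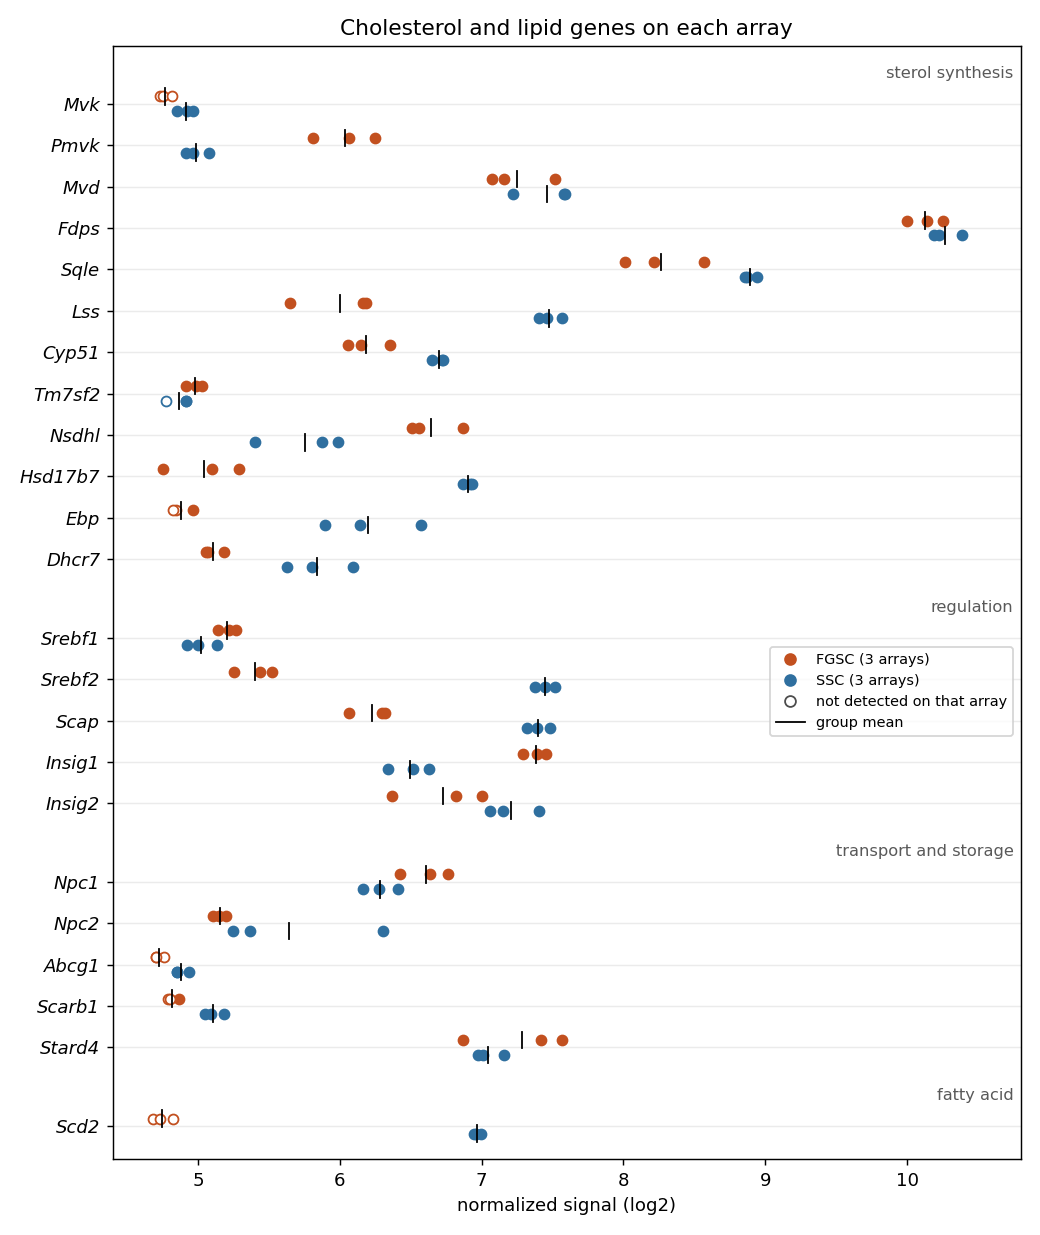
Normalized log2 signal (horizontal axis) of the 23 tested members on each of the 3 FGSC and 3 SSC arrays, with FGSC above SSC in each row, open circles for arrays on which the probe was not detected and a line at the group mean. Srebf2 lies between 5.25 and 5.52 in FGSC and between 7.38 and 7.52 in SSC, while Fdps, Mvd, Tm7sf2 and Stard4 overlap between the groups.

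Among the regulators, Srebf2 and Scap were lower in FGSC and Insig1 was higher. Srebf2, probe ILMN_1223598, gave 5.25, 5.44 and 5.52 on FGSC arrays 1 to 3 and 7.52, 7.38 and 7.45 on SSC arrays 1 to 3. Every FGSC value lay well below every SSC value, with a difference of -2.04 ± 0.10, a 4.12-fold lower signal (adjusted p = 6.89e-06). Its other kept probe read 5.40, 5.40 and 5.67 in FGSC and 6.65, 6.41 and 6.56 in SSC, again without overlap, at -1.05 ± 0.11 (adjusted p = 0.000262 over all kept probes), so the probes gave the same direction and differed in size. Scap, which escorts SREBP proteins, was 6.06, 6.30 and 6.32 in FGSC and 7.32, 7.39 and 7.48 in SSC. The groups did not overlap and the difference was -1.17 ± 0.10 (adjusted p = 8.43e-05), while its other probe, at -0.22 ± 0.13, was not called (adjusted p = 0.179).

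Insig1, whose protein retains SCAP and whose gene is itself a target of SREBP proteins, was 7.29, 7.45 and 7.39 in FGSC and 6.34, 6.51 and 6.63 in SSC. All FGSC values were above all SSC values, by 0.89 ± 0.10 (adjusted p = 0.000337). Of its further kept probes 1 was higher by 1.28 ± 0.10 and 1, at 0.09 ± 0.21, was not called (adjusted p = 0.731). Its paralogue Insig2 was 7.003, 6.82 and 6.37 in FGSC and 7.06, 7.15 and 7.41 in SSC. These values did not overlap, but the difference of -0.47 ± 0.18 was not called (adjusted p = 0.0583), and FGSC replicate 3 was the lowest. Without FGSC replicate 1 the difference was -0.61 and called (adjusted p = 0.0306). With the mean of kept probes it was -0.77 and called as well (adjusted p = 0.00167). The other kept Insig2 probe was lower in FGSC (-1.06 ± 0.10, adjusted p = 0.000173). Srebf1, which encodes SREBP1, the factor of fatty acid genes, read 5.14, 5.27 and 5.22 in FGSC and 4.93, 5.13 and 4.997 in SSC, close to background, and was not called at 0.19 ± 0.09 (adjusted p = 0.101).

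**Figure D2:**
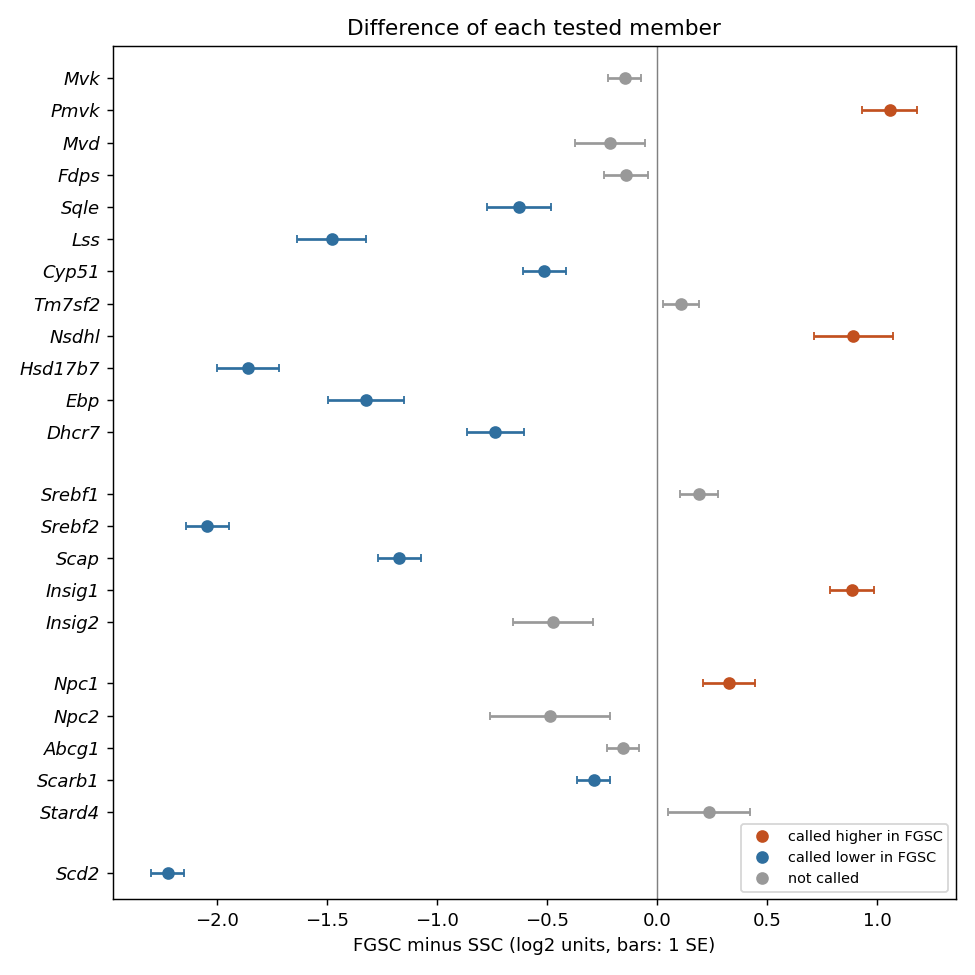
Difference FGSC minus SSC in log2 units (horizontal axis, bars 1 SE) of each tested member, in the order of sterol synthesis, regulation, transport and storage, and fatty acid genes, coloured by call. Srebf2 lies at -2.04 and Pmvk at 1.06, and the points of Scd2, Mvk and Abcg1, undetected on every FGSC array, are not measured differences. Scd2 is at least 4.28-fold lower with the background correction used here.

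The sequences upstream of a lower and a higher regulator are shown because both genes belong to the SREBP circuit. They are RefSeq promoters of GRCm38.p6, 250 bases before to 50 after the start, read 5′ to 3′ on the strand of the gene, with matches to CCAAT, the NF-Y box, on either strand (ATTGG on the other) and to the E-box CACGTG in capitals. Srebf2 lies at chr15:82147019-82147318, plus strand, and Insig1 at chr5:28071162-28071461, plus strand.
Srebf2: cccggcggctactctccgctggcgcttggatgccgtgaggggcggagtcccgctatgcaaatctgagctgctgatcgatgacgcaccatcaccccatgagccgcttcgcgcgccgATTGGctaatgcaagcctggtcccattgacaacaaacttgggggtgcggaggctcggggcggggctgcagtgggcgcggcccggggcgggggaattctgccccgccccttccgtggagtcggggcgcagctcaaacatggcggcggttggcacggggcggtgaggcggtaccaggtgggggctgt
Insig1: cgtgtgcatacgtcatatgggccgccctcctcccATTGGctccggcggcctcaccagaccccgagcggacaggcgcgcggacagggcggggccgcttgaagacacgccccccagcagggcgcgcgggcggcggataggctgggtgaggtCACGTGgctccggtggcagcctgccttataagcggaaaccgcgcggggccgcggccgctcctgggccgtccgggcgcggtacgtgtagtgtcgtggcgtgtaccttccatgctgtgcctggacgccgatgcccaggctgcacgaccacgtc
Both held CCAAT, and Insig1 also held CACGTG. The RefSeq table held promoters for 23 of the 32 listed genes, 16 of them tested. CCAAT was found in at least 1 promoter of 20 of the 23 genes (87.0%), against 41.1% of all 27025 genes in the table, and the GC box GGGCGG in 21 (91.3%) against 38.2%. The table of all genes includes non-coding ones. CACGTG was found in 6 of the 23 (26.1%, against 8.09%) and CANNTG, which contains it, in 18 (78.3%, against 74.99%). The sterol element TCACNCCAC was found in 1 of the 23, Hmgcs1, against 1.44% of all genes, and there as TCACCCCAC, which is held by 0.614% of all genes. All motifs were searched on both strands as exact matches to these patterns. Variants of an element and sites outside these promoters were not counted. CCAAT did not separate the calls: 3 of 3 higher, 6 of 7 lower and 6 of 6 uncalled members with a promoter held it. CACGTG was held by 1 of the 3 higher members, by 3 of the 7 lower ones, Dhcr7, Hsd17b7 and Scap, and by 0 of the 6 uncalled ones.

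In the first stretch of synthesis, from mevalonate to farnesyl diphosphate, 1 of 4 tested genes was higher (25%) and 0 were lower. Over all genes 30.9% were higher and 31.5% lower. Pmvk, phosphomevalonate kinase, read 6.24, 5.81 and 6.06 in FGSC and 5.07, 4.91 and 4.96 in SSC, without overlap and close to background in SSC. Its difference was 1.06 ± 0.12 (adjusted p = 0.000397). Mvd, which decarboxylates diphosphomevalonate, was 7.07, 7.16 and 7.51 in FGSC and 7.58, 7.59 and 7.22 in SSC, where the groups overlapped (-0.21 ± 0.16, adjusted p = 0.272). Fdps, which makes farnesyl diphosphate, was 9.998, 10.14 and 10.25 in FGSC and 10.19, 10.39 and 10.22 in SSC and overlapped too (-0.14 ± 0.10, adjusted p = 0.261). Its dimmer probe, however, was called lower in FGSC (-0.80 ± 0.09, adjusted p = 0.000416). Fdps was also called lower with the mean of kept probes (-0.47, adjusted p = 0.0016). Mevalonate kinase, Mvk, averaged 4.77 ± 0.04 in FGSC, where it was undetected, and 4.91 ± 0.06 in SSC (SD, n = 3 arrays each), and was not called by limma (adjusted p = 0.125). The authors' processed values gave Mvk as called lower (-0.44, adjusted p = 0.0219). Idi1, the isomerase between Mvd and Fdps, had 1 probe, detected on 1 SSC array, and was not tested.

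From squalene on, 1 of 8 tested genes was higher (12.5%) and 6 were lower (75%), with a median of -0.68. The 6 include Hsd17b7, whose size and call could not be settled, as described below. Over all genes these shares were 30.9% and 31.5%. The division into these stretches was made with earlier results of these data known. Squalene epoxidase, Sqle, was 8.01, 8.21 and 8.57 in FGSC and 8.86, 8.87 and 8.94 in SSC. FGSC lay below SSC on every array, with a difference of -0.63 ± 0.15 (adjusted p = 0.00894), and the other kept probe, at -0.38 ± 0.13, was called as well (adjusted p = 0.0436). Lanosterol synthase, Lss, which closes the sterol rings, was 6.17, 6.18 and 5.65 in FGSC and 7.57, 7.46 and 7.40 in SSC. The gap of -1.48 ± 0.16 was a 2.79-fold lower signal (adjusted p = 0.000244). FGSC replicate 3 was the lowest array, yet the groups were well apart without it. A second Lss probe near background, at 4.91, 4.93 and 5.12 in FGSC and 4.98, 4.70 and 4.84 in SSC, was not called (0.14 ± 0.10, adjusted p = 0.274). Cyp51, which removes the first methyl group from lanosterol, was 6.06, 6.15 and 6.35 in FGSC and 6.73, 6.65 and 6.72 in SSC, again without overlap (-0.51 ± 0.10, adjusted p = 0.00362).

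The later trimming steps split. Nsdhl, which takes part in removing the C4 methyl groups, was 6.51, 6.56 and 6.87 in FGSC and 5.88, 5.98 and 5.40 in SSC. It was higher on every FGSC array, by 0.89 ± 0.18 (adjusted p = 0.00473). With arrays scaled by their medians the difference was 0.61 and was not called (adjusted p = 0.0612). Of its 3 further kept probes 1 was higher, at 0.80 ± 0.15, and the others, at 0.28 ± 0.10 and 0.01 ± 0.10, were not called. Hsd17b7, the 3-keto reductase of the same demethylation, read 5.29, 4.75 and 5.10 in FGSC and 6.93, 6.92 and 6.87 in SSC, a difference of -1.86 ± 0.14 (adjusted p = 4.99e-05). Its deposited FGSC signals of 119, 95.3 and 103 did not match their detection p-values of 0, since the lowest signals of other probes at that p-value were 122, 120.5 and 120.2 on those arrays. With the FGSC signals set to those lowest signals the difference was -1.35 and called (adjusted p = 0.000144). A detection p-value of 0 sets no upper limit on a signal, however. The median signals of other probes at that p-value were 225, 223 and 207, and the SSC signals of Hsd17b7 were 229, 200 and 193. Neither the size nor the call can therefore be settled from the detection p-values.

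Ebp, the sterol isomerase of the next step, was 4.97, 4.84 and 4.82 in FGSC, where it was detected on 1 array, and 5.90, 6.14 and 6.57 in SSC. The groups did not overlap, and the difference of -1.32 ± 0.17 was called (adjusted p = 0.000626). Nsdhl and Ebp both lie on chromosome X and were called in opposite directions. Dhcr7, which reduces 7-dehydrocholesterol to cholesterol, was 5.19, 5.07 and 5.06 in FGSC and 5.81, 5.63 and 6.09 in SSC, lower in FGSC on every array (-0.74 ± 0.13, adjusted p = 0.00261). Its FGSC values were close to background. Without background correction the difference was -0.32 and called (adjusted p = 0.00498). Tm7sf2, the C14 sterol reductase, averaged 4.98 ± 0.06 in FGSC and 4.87 ± 0.08 in SSC (SD, n = 3 arrays each), near background, and was not called by limma (adjusted p = 0.283). Sc5d, the sterol desaturase before Dhcr7, was detected on 2 FGSC arrays and 0 SSC arrays and was not tested.

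The promoters of the strongly lower Lss and of the higher Nsdhl are set side by side in the same form and build. Lss lies at chr10:76531355-76531654, plus strand, and Nsdhl at chrX:72918271-72918570, plus strand.
Lss: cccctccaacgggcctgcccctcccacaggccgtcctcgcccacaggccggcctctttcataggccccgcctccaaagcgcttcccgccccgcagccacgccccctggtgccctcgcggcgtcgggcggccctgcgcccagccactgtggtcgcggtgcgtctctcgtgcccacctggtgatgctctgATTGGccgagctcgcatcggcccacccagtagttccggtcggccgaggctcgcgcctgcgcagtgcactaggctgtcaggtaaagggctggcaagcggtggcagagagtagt
Nsdhl: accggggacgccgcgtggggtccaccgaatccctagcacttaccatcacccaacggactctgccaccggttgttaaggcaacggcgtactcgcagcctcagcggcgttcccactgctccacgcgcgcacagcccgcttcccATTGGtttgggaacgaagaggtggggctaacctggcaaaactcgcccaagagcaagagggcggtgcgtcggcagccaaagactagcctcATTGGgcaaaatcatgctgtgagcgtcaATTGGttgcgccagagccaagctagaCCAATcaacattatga
Both hold the CCAAT box, 1 match in Lss and 4 in Nsdhl, and neither holds CACGTG or TCACNCCAC.

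Of the sterol transport and storage genes only Npc1 and Scarb1 were called, and each call was lost under at least 1 alternative. With the authors' processed values 0 were higher and 2 lower, with a median of -0.54, and a filter at a detection p-value under 0.01 on all arrays left 2 genes, neither called, with a median of 0.28. Npc1, the membrane protein that moves cholesterol out of lysosomes, was 6.63, 6.77 and 6.43 in FGSC and 6.28, 6.41 and 6.16 in SSC. The groups did not overlap, with a difference of 0.33 ± 0.12 just past the threshold (adjusted p = 0.0470), and the call was lost when any array other than FGSC replicate 3 was left out (adjusted p = 0.0525 to 0.140). It was lost with median scaling as well, at 0.06. Another Npc1 probe went the opposite way, with 5.07, 4.94 and 4.80 in FGSC and 5.48, 5.72 and 6.69 in SSC, of which SSC replicate 3 was the highest (-1.02 ± 0.30, adjusted p = 0.0252). Npc1 thus had no settled direction. Npc2, the soluble partner of NPC1 in the lysosome, was 5.20, 5.15 and 5.11 in FGSC and 5.25, 5.36 and 6.30 in SSC. SSC replicate 3 stood above the others, and the difference of -0.49 ± 0.27 was not called (adjusted p = 0.159). Without that array it was -0.16 and again not called (adjusted p = 0.182). Stard4, a soluble sterol carrier, was 7.56, 7.42 and 6.87 in FGSC and 6.98, 7.16 and 7.01 in SSC. The groups overlapped through FGSC replicate 3 (0.24 ± 0.18, adjusted p = 0.3003), and without that array the difference was 0.44 and called (adjusted p = 0.00658).

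Scarb1, the HDL receptor SR-BI, was 4.86, 4.79 and 4.80 in FGSC, detected on 1 array, and 5.05, 5.09 and 5.18 in SSC, close to background in both groups (-0.29 ± 0.08, adjusted p = 0.0147). The call was lost without FGSC replicate 2 (adjusted p = 0.0512). The efflux transporter Abcg1 averaged 4.72 ± 0.04 in FGSC, where it was undetected, and 4.88 ± 0.05 in SSC (SD, n = 3 arrays each) and was not called by limma (adjusted p = 0.0995). Abca1, the other efflux transporter on the list, was not detected on any array by its 1 probe.

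**Figure D3:**
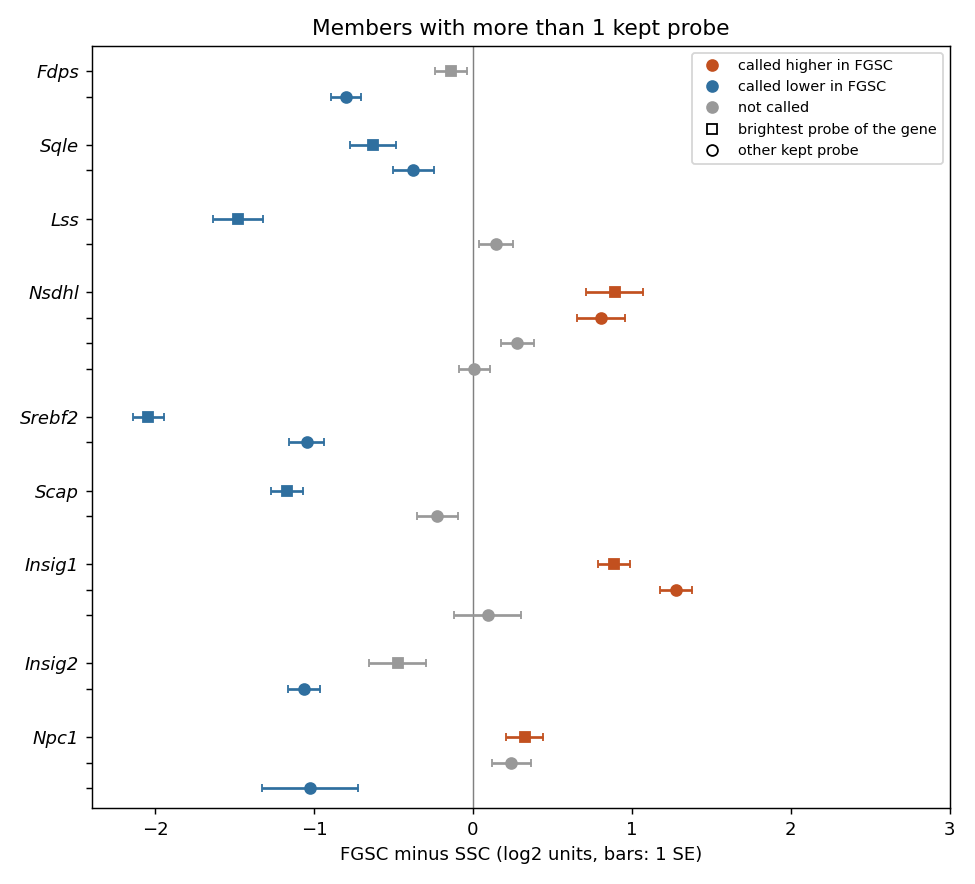
Difference FGSC minus SSC in log2 units (horizontal axis, bars 1 SE) for every kept probe of the 9 members with more than 1, squares for the brightest probe of a gene and circles for the others. Srebf2 and Sqle have all kept probes on the lower side, while the Npc1 probes lie on both sides.

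Across the 9 members with more than 1 kept probe, 13 probes other than the brightest were available and 7 were called, against 59.3% of all kept probes. Of these 7, 4 had the direction of a called gene and 1, of Npc1, the opposite direction. The remaining 2 belonged to Fdps and Insig2, which were not called by their brightest probes.

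Of the fatty acid members only Scd2 was tested. Scd2, a stearoyl-CoA desaturase, was 4.68, 4.82 and 4.73 in FGSC, where it was undetected, and 6.998, 6.95 and 6.96 in SSC. Its signal was at least 4.28-fold lower in FGSC with the background correction used here, and this direction was fixed by the detection filter. Without background correction the log2 difference was -1.12. Its paralogue Scd1 was detected on 2 SSC arrays and 0 FGSC arrays, and Fasn, fatty acid synthase, on no array, so neither was tested.

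Within groups the members varied about as much as other genes did. The median SD over 3 arrays was 0.14 in FGSC and 0.08 in SSC for the members, and 0.14 and 0.10 for all genes tested. Among the 12 sterol synthesis genes FGSC replicate 3 was the highest FGSC array for 7 and FGSC replicate 1 the lowest for 7, while the highest SSC array was replicate 1, 2 or 3 for 5, 4 and 3 genes.

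Other genes of the pathway gave a mixed picture for sterols and mostly lower calls for fatty acid genes. Their lists were written beside the members, with earlier results of these data known. Over all genes tested 30.9% were higher and 31.5% lower. Of 5 tested further synthesis genes 3 were higher and 2 lower. Msmo1, the C4 methyl oxidase, averaged 5.67 ± 0.06 in FGSC and 6.79 ± 0.56 in SSC (-1.11 ± 0.26). Lbr, a second C14 reductase, averaged 8.24 ± 0.20 in FGSC and 9.34 ± 0.14 in SSC (-1.10 ± 0.13). Its other kept probe, at 0.30, was called in the opposite direction (adjusted p = 0.0450 over all kept probes). Dhdds, of the dolichol branch, was higher by 1.01 ± 0.10 and Erg28 by 0.35 ± 0.09. With median scaling none of the 3 higher genes was called. Of 7 further regulators 3 were higher and 1 lower, or 4 and 1 with the mean of kept probes. Mbtps1, the site-1 protease that begins the release of SREBP proteins, was lower (-1.06 ± 0.08). Fbxw7, of the ubiquitin ligase that marks nuclear SREBP proteins for degradation, was higher (1.21 ± 0.10), as were the retinoid X receptor genes Rxra (0.74 ± 0.14) and Rxrb (0.71 ± 0.14, other probes 0.38 and 0.07). Rxra lost the call with median scaling (0.44, adjusted p = 0.0869). Marchf6 (0.21 ± 0.09, by its brightest probe) and Rnf139 (0.15 ± 0.11) were not called. The other kept Marchf6 probes, at 0.65 and 0.53, were called higher (adjusted p = 0.0149 and 0.0113 over all kept probes). Marchf6 was also called higher with the mean of kept probes (0.46, adjusted p = 0.000937).

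Of 15 further uptake and transport genes 5 were higher and 7 lower, with a median of -0.18. Lipa and Lrp8, both among the lower ones, and Lrp1 were undetected on every FGSC array, and of the 12 genes detected in both groups 5 were higher and 5 lower, with a median of 0.14. At a detection p-value under 0.01 on all arrays 5 were higher and 3 lower of 9, with a median of 0.48. Cyp27a1, sterol 27-hydroxylase, averaged 4.88 ± 0.09 in FGSC and 7.49 ± 0.11 in SSC (-2.60 ± 0.09), and its 2 other kept probes gave -2.21 and -2.65. Gramd1b, a sterol carrier of membrane contact sites, was lower (-1.74 ± 0.12, other probe -1.09). Nceh1, a cholesteryl ester hydrolase, averaged 7.66 ± 0.20 in FGSC and 5.58 ± 0.05 in SSC (2.08 ± 0.12), and Abca2, a lipid transporter, was higher by 1.60 ± 0.11. Stard5 (0.31 ± 0.16, by its brightest probe) and Lrp1 (-0.18 ± 0.10) were not called. The other kept Stard5 probe, at -0.28, was called lower. Of 12 further fatty acid genes 3 were higher and 8 lower, with a median of -1.11, where 30.9% and 31.5% of all genes were higher and lower. Me1, among the lower ones, was undetected on every FGSC array, and of the 11 genes detected in both groups 3 were higher and 7 lower, with a median of -1.03. The desaturase gene Fads1 averaged 8.03 ± 0.12 in FGSC and 11.06 ± 0.09 in SSC (-3.03 ± 0.10, adjusted p = 1.51e-06), and Fads2 4.84 ± 0.09 in FGSC, where it was near background and detected on 1 array, and 6.86 ± 0.12 in SSC (-2.02 ± 0.09). Its other kept probe gave -0.58. Acacb, an acetyl-CoA carboxylase, averaged 8.16 ± 0.19 in FGSC and 5.69 ± 0.14 in SSC (2.46 ± 0.13). The elongase gene Elovl1 was higher by 1.84 ± 0.20, while 1 of its 3 other probes, at -0.93, was called lower. Tecr, of the elongation cycle, was not called by its brightest probe (0.20 ± 0.13). Of its other kept probes, that at 0.46 was called higher and that at -0.44 was not called. The counts of 3 higher and 8 lower fatty acid genes were the same with median scaling. All values after ± in parentheses are SE, and those beside means are SD over 3 arrays.

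**Figure D4:**
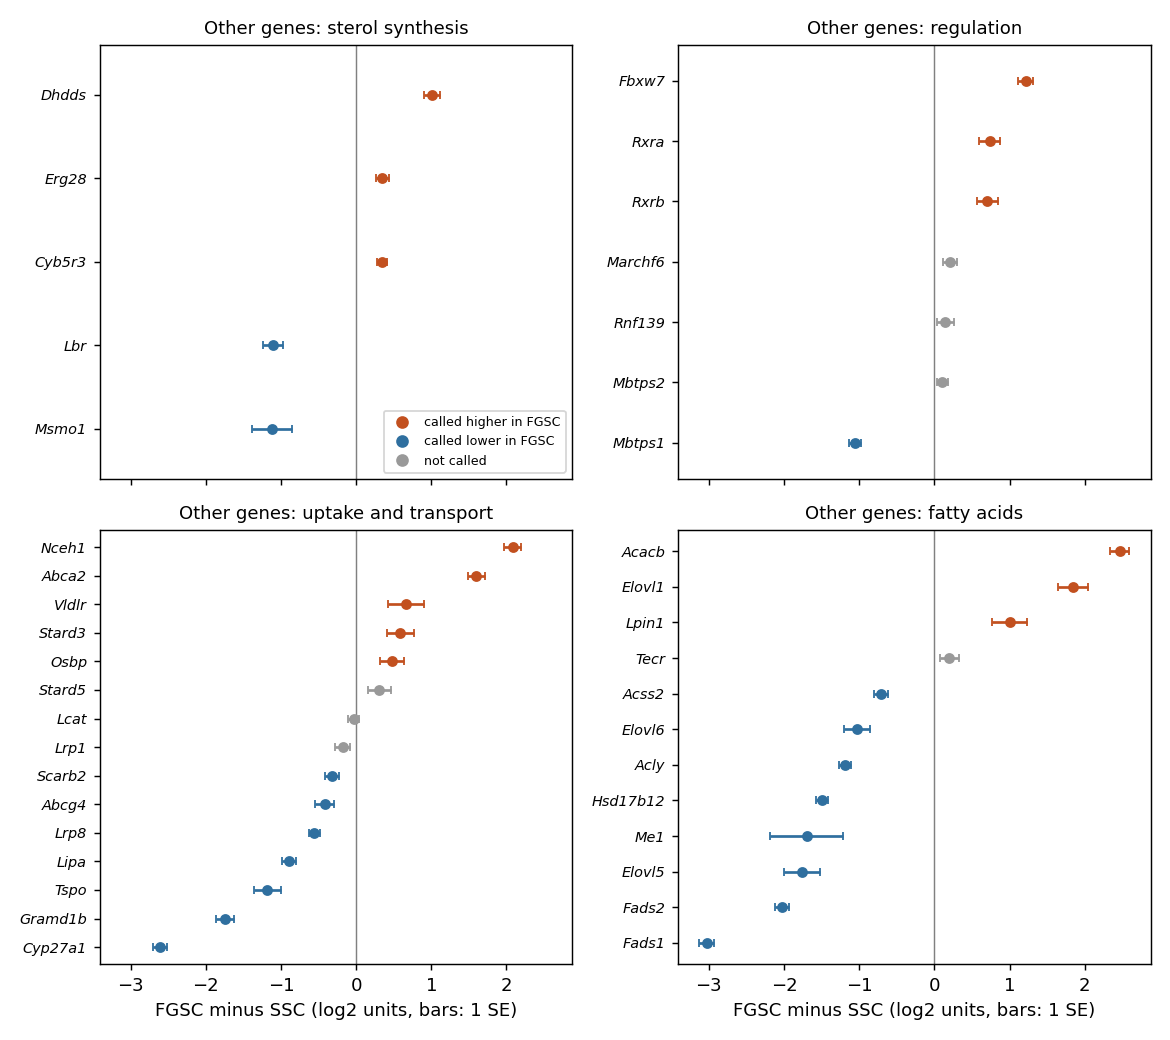
Difference FGSC minus SSC in log2 units (horizontal axes, bars 1 SE) of the tested pathway genes outside the member list, in 4 panels by role and coloured by call. In the fatty acid panel 8 of 12 genes lie to the left as called lower, down to Fads1 at -3.03, and Acacb lies at 2.46.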

How the data were processed

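The authors deposited, per the file headers, a signal intensity per probe with its detection p-value on 6 arrays of 45281 probes, not normalized between arrays, and a second table of processed intensity with unstated scale and centring, used as an alternative only. That table had a median of 19.9 on every array and was read as linear and quantile-normalized. lumi is named, with no role, in the submitters' processing notes. The neqc steps of limma 3.58.1 (R 4.3.3) gave log2 values: a normal-exponential background correction with offset 16 that draws the background from the detection p-values, then quantile normalization. Probes detected at a p-value under 0.05 on at least 3 arrays and carrying 1 gene symbol were kept (16159), and the brightest kept probe stood for a gene. Symbols came from the platform annotation, updated through a RefSeq table of GRCm38, with 34807 probes matched by gene ID.

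FGSC and SSC were compared with lmFit and eBayes in limma, without a covariate, with Benjamini-Hochberg adjustment over all genes tested. The fit was tested on simulated data. For a gene undetected on every array of a group, the fold is a bound, the mean of the other group against the higher of the probe's own signal and the lowest detected signal on each array. An exact permutation test of 3 against 3 arrays cannot go below a p of 0.1, and none was run. The number of arrays limits the precision.

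Members, roles and lists were chosen with earlier results of these data known. Every member was accounted for, and of each further list up to 4 called and 2 uncalled genes were named by size of difference. Lists are described by counts and medians, with no test over a list. Alternatives covered scaling, background correction, the deposited processed values, detection filters, the probe rule, irregular probes (329 whose signal broke the order of its own detection p-value), the replicate number as a block, and each array left out.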

Additional observations from a re-analysis of the deposited data

How the results depend on the processing

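Over the alternatives, 619 single-gene values kept their direction and side of the threshold, 18 lost the call, 8 gained it and 1 reversed, that of Npc1, at -0.15 with the mean of kept probes. Members called higher were 2 in place of 4 with median scaling, where Nsdhl and Npc1 lost the call. With that scaling the median over all genes was -0.12, and 39.1% of called genes were higher (1929 higher, 3002 lower), in place of 49.5% (3283 higher, 3344 lower). The filter at a detection p-value under 0.01 on all 6 arrays left 14 members, 2 higher and 6 lower, and 4391 called genes of 6896, since fewer genes were tested. The median of the regulators was -0.68 with median scaling, -0.28 without background correction and -0.70 with the mean of kept probes, and lay between -0.61 and -0.29 with single arrays left out. The median of the sterol synthesis genes was -0.18 without a detection filter, -0.20 without background correction and -0.21 without irregular probes, in place of -0.36. That of the transport and storage genes was -0.54 with the authors' processed values and 0.28 with the strict filter, which left 2 genes. With single arrays left out, 3 to 5 members were higher and 9 to 11 lower, 5777 to 7000 genes were called, and the synthesis median lay between -0.47 and -0.29. Other causes were not tested. Same-numbered arrays did not deviate together (correlations across genes -0.20, -0.05 and -0.22), and with the replicate block 5926 genes were called, 4 members higher and 9 lower, Scarb1 losing the call (adjusted p = 0.0568). The test with Hsd17b7 FGSC signals set to the lowest signals at their detection p-values was chosen after seeing the data.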
